A study of Mus musculus with 12 samples.

Results

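The Hox cluster genes were followed here in neurons derived from mouse embryonic stem cells and in 4 regions of the embryonic mouse brain. Members were all probes whose gene name on the array was Hoxa, Hoxb, Hoxc or Hoxd followed by a paralogue number. This gave 43 probes for 39 genes, of 55681 probes and 36163 gene names in all. Cluster A on chromosome 6 gave 11 genes, cluster B on chromosome 11 gave 10, and clusters C (chromosome 15) and D (chromosome 2) gave 9 each. There were 4 genes with 2 probes each, among them Hoxa9, Hoxa13 and Hoxb3.

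Hox genes encode homeodomain transcription factors that give cells their position along the head-to-tail axis. In the neural tube they are switched on in the hindbrain and spinal cord, low-numbered paralogues reaching furthest forward and high-numbered ones kept to the tail end, while the forebrain and midbrain lie in front of all Hox domains. WNT signals, retinoic acid and fibroblast growth factors open the clusters in the posterior embryo, Polycomb proteins keep them shut elsewhere, and Pbx and Meis proteins bind DNA together with the Hox factors.

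All 8 cultures came from 129/Ola male cells and were sampled at day 16 of differentiation, in 4 groups of 2 arrays. All of them first received the WNT inhibitor 53AH at 2.5 µM and the BMP inhibitor LDN193189 at 0.25 µM, starting at day 0. In CHIR_8-16 the inhibitors were replaced at day 8 by the WNT agonist CHIR at 3 µM until day 16, and in CHIR_11-16 at day 11 by the agonist at a dose the labels do not state. The day 8 is that of the labels, and the steps that the protocol text puts before the agonist last 7 days. WiBi_0-16 stayed in both inhibitors up to day 16 and WiBi_0-11 up to day 11, neither with agonist. The labels call the CHIR8 cultures hippocampal and the WiBi 11 cultures isocortical. E15 midbrain, ventral telencephalon, hippocampus and cortex of Sv129s6 embryos of both sexes gave 1 array each, so nothing is known of their spread. Each RNA pooled 3 sets of experiments. No label says that both arrays of a group came from separate cultures, so the spread behind each p-value may be technical.

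The arrays were single-colour Agilent arrays, and a level is given as percent of the signal at the 75th percentile of the same array. A gene counts as detected where at least 1 of its probes was marked well above background. Between 64.7% and 75.3% of all gene names were detected on an array. The lowest level so marked, the limit of an array, ran from 1.05% on CHIR_11-16 replicate 1 to 3.36% on WiBi_0-11 replicate 2. The replicate number goes with the slide in the cultures (replicate 1 with slide 2, replicate 2 with slide 3), and 34.3% of the 25748 tested genes differed between these slides in limma. The 10 genes of the forebrain list summed to 8504% to 11890% in the cultures and to 3656% in E15 midbrain, against 15670% to 25550% in the telencephalic tissues, and all 7 neuron markers were detected on all 12 arrays. In such bulk RNA, fewer Hox-positive cells and less Hox RNA per cell cannot be told apart.

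A look at the probes helps to read the values, since a 60-base probe sees 1 short stretch of a transcript. The next 3 stretches, 30 bases each from the probes of the genes the results turn on, carry the polyadenylation signal AATAAA in capitals (mm9, plus strand), a motif held on this strand by 7 of the 43 Hox probes and by 10.1% of all 55681 probes. The match is only a string of letters, and whether these probes lie near the 3′ end of the messenger was not checked.
Hoxb4, probe at chr11:96182885-96182944: agtgacaacagaAATAAAtgtttggtttct
Hoxc4, probe at chr15:102867213-102867272: cccgtgatcaatAATAAAccagtggctgtg
Hoxb13, probe at chr11:96057854-96057913: gagctgattgtgAATAAAttcggaagacga

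Other probes lie in coding sequence. In the Hoxa6 probe capitals mark the codons of the short peptide through which Hox proteins contact Pbx, found in 4 probes of the array (0.00718%) and in no other Hox probe. The Hoxd11 probe runs to the TGA stop codon in capitals at its end.
Hoxa6, probe at chr6:52158194-52158253, minus strand: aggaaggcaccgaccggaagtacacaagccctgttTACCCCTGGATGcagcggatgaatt
Hoxd11, probe at chr2:74522136-74522195, plus strand: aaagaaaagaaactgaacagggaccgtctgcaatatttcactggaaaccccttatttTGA

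Most Hox genes lay below or near the limit. Of the 39 genes, 11 were detected on no array of the 12 (Hoxa5, Hoxa10, Hoxa11, Hoxb1, Hoxb5, Hoxb8, Hoxb9, Hoxc8, Hoxc11, Hoxd1 and Hoxd12), against 14.2% of all gene names. Hoxa5 had no unmarked spot on the midbrain array. In the cultures 25 Hox genes were detected on at least 1 array, against 81.6% of all names, and 4 of the 39 on all 8, against 63.0%. Those 4 were Hoxa4, Hoxa9, Hoxb13 and Hoxc12. Counts of 5 or fewer genes named by detection pattern were named after their values had been seen.

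**Figure D1:**
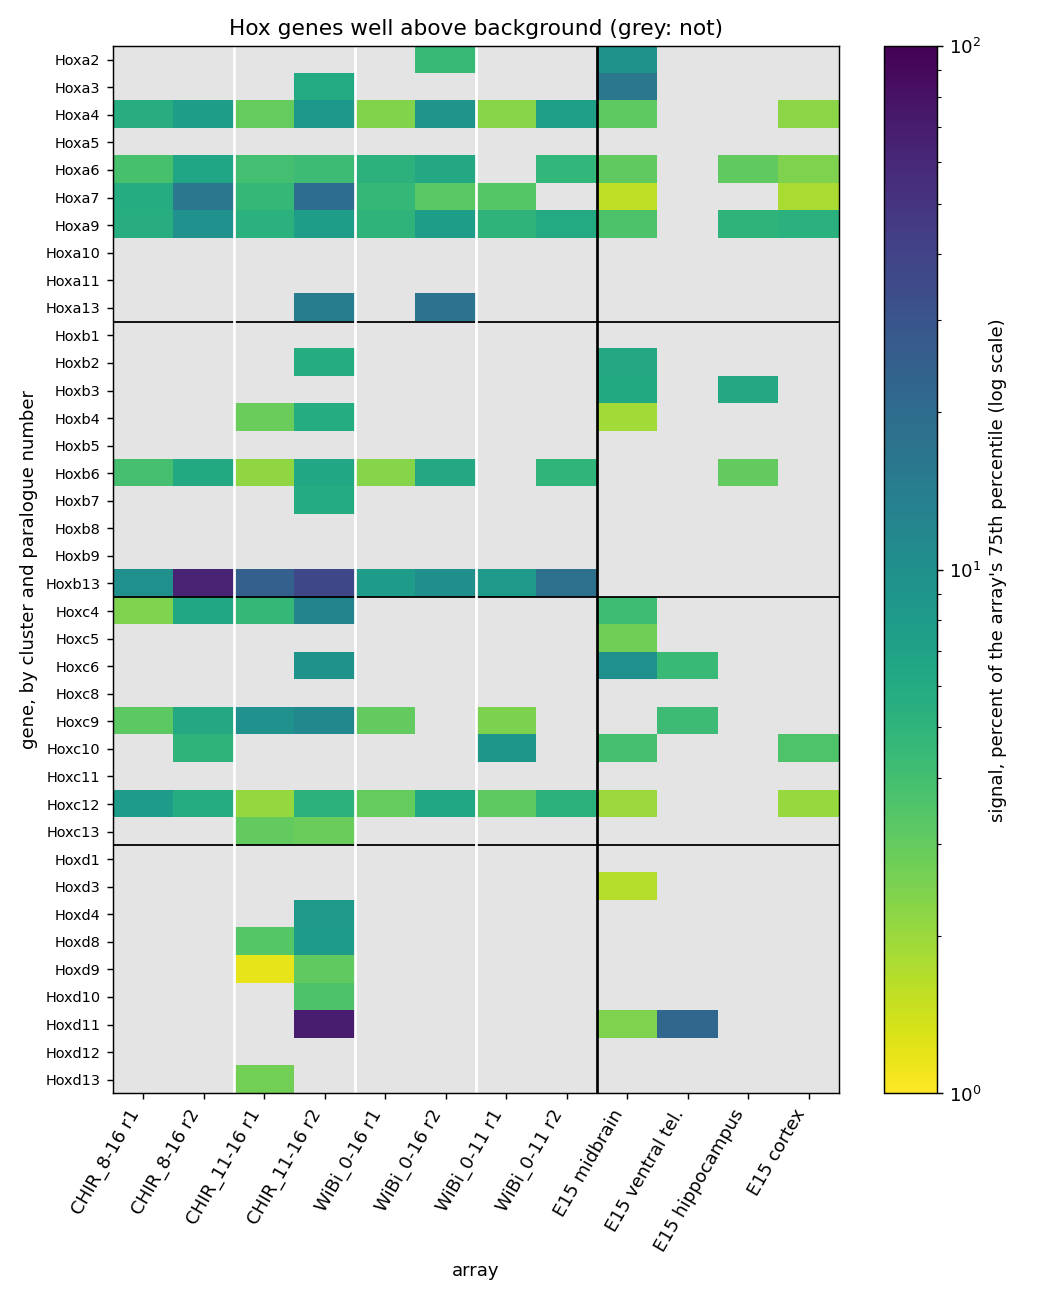
Each row is a Hox gene, ordered by cluster and paralogue number, and each column an array (r1 and r2 are replicates). Colour gives the level of the brightest detected probe in percent of the 75th percentile on a log scale, and grey means not well above background (for Hoxa5 in E15 midbrain, no usable spot). Not every member is drawn. The CHIR_11-16 replicate 2 and E15 midbrain columns hold the most coloured cells.

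More Hox genes were well above background in the agonist cultures than in the others, most of all in CHIR_11-16. Both CHIR_8-16 arrays detected 9 Hox genes together (background over all gene names 66.6%), and both CHIR_11-16 arrays 13 (69.8%). By comparison, both WiBi_0-16 arrays detected 7 (67.7%) and both WiBi_0-11 arrays 4 (64.9%). By paralogue number, CHIR_11-16 showed 3 of the 12 genes of groups 1 to 4 on both arrays, 4 of the 11 of groups 5 to 8 and 6 of the 16 of groups 9 to 13. CHIR_8-16 showed 2, 3 and 4 of these classes, WiBi_0-16 showed 1, 3 and 3, and WiBi_0-11 showed 1, 0 and 3. By cluster, 2 genes of cluster D (Hoxd8 and Hoxd9) were detected on both CHIR_11-16 arrays, and 0 of its 9 genes on any array of the other 3 culture groups.

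The limits of the arrays differed in the same direction: on each slide the CHIR_11-16 array had the lowest limit, 1.05% on slide 2 and 2.24% on slide 3. The other limits were 1.66% to 1.82% on slide 2 and 2.82% to 3.36% on slide 3. With 1 limit for all 8 arrays, 3.36%, added after seeing the data, both arrays passed for 7 Hox genes in CHIR_8-16 (background 64.0%) and 6 in CHIR_11-16 (62.8%). The same limit left 3 in WiBi_0-16 (63.6%) and 2 in WiBi_0-11 (62.9%). The agonist groups counted more genes than the inhibitor-only groups under that limit, while CHIR_11-16 no longer counted more genes than CHIR_8-16. With the laxer mark of positive and significant signal the order changed: both arrays detected 19 Hox genes in CHIR_8-16 and 27 in CHIR_11-16, against 22 in WiBi_0-16 and 16 in WiBi_0-11. These counts carry no test.

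**Figure D2:**
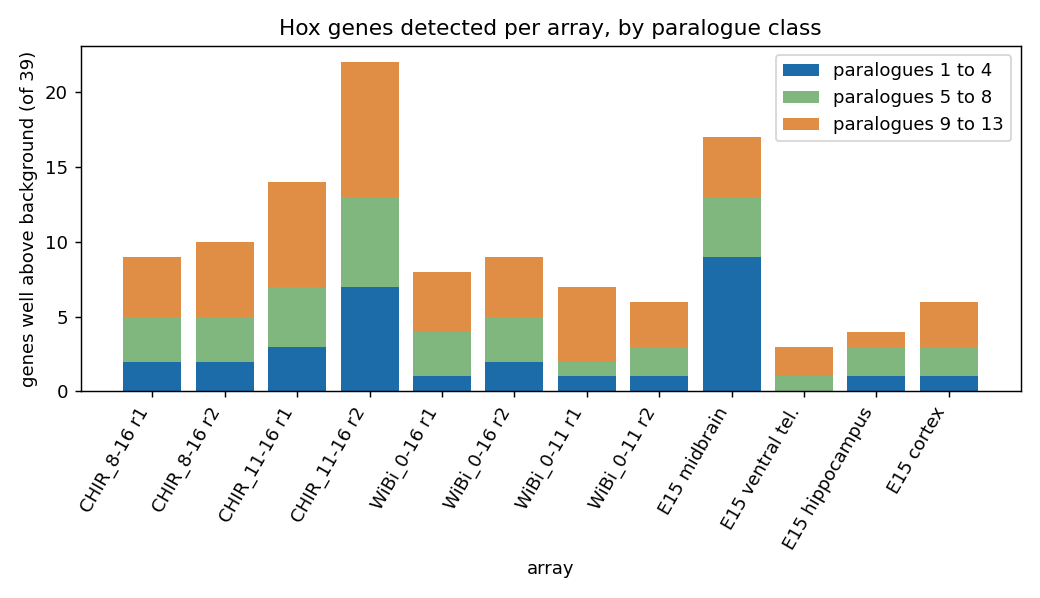
Bars count the Hox genes well above background on each array (of 39), stacked by paralogue class. CHIR_11-16 replicate 2 reached 22 genes and its replicate 1 reached 14, and the other 6 culture arrays held 6 to 10.

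The paired arrays of CHIR_11-16 were far apart. Replicate 2 detected 22 Hox genes, 56.4% of the family (71.8% of all gene names), and replicate 1 detected 14 (75.1%). The CHIR_8-16 arrays detected 9 (71.4%) and 10 (69.1%), against 8 (71.3%) and 9 (71.0%) on the WiBi_0-16 arrays and 7 (69.4%) and 6 (67.2%) on the WiBi_0-11 arrays. Among the culture arrays, 8 Hox genes, among them Hoxa3, Hoxb7, Hoxc6, Hoxd4 and Hoxd11, were detected only on CHIR_11-16 replicate 2, a pattern that 0.816% of all gene names shared. Their levels there were 3.63% to 9.48% for 7 of them and 70% for Hoxd11, a paralogue of the posterior trunk and limb. Each was below background on the other array of the same group, so these 8 rest on 1 array. The only-here pattern held for 1 Hox gene on CHIR_11-16 replicate 1 (Hoxd13, 2.68%), 1 on WiBi_0-16 replicate 2 (Hoxa2, 4.38%) and 0 on each of the other 5 arrays.

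Stem cell markers varied between the arrays. Of the 6 pluripotency markers, all 6 were detected on CHIR_11-16 replicate 2, CHIR_8-16 replicate 2 and WiBi_0-11 replicate 2, and 4 or 5 on the other 5 culture arrays. Each embryonic array also detected 4 of them, with Pou5f1 and Zfp42 on none. Zfp42 was at 43.3% on CHIR_11-16 replicate 2, 20.9% on CHIR_8-16 replicate 2 and 51.6% on WiBi_0-11 replicate 2, and at 0.429% to 2.94% on the other 5. The arrays with all 6 markers detected 22, 10 and 6 Hox genes in the same order, at array limits of 2.24%, 3.23% and 3.36%. The summed level of the list ranged over 878% to 6718% in CHIR_8-16 and 939% to 960% in CHIR_11-16, against 550% to 1264% in WiBi_0-16 and 866% to 1228% in WiBi_0-11. The 6718% was that of CHIR_8-16 replicate 1 and came almost wholly from 1 gene, Tdgf1, at 6559%. Zfp42 was at 0.676% on that array. The near-equal sums of CHIR_11-16 hid unlike arrays. Dppa5a was at 4.56% on its replicate 1 and 468% on its replicate 2, and Tdgf1 at 840% and 316%. The part of these markers in the Hox detections was not tested.

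The comparison of all agonist with all inhibitor-only cultures asked whether Hox RNA differed between cultures with and without the WNT agonist. The inhibitors ended at day 8 or 11 in the agonist cultures and at day 11 or 16 in the others. The agonist and the length of inhibition therefore cannot be told apart in this comparison. Only CHIR_11-16 and WiBi_0-11 had equal inhibitor exposure. Of the 39 genes 13 passed the filter for testing, which asked for detection on both arrays of at least 1 group. As many as 6 of them passed only through agonist groups (4 through CHIR_11-16 alone), so that their direction was partly set by the filter. In limma without a slide term 0 of the 13 were called at an adjusted p under 0.05 (0.00777% of the 25748 genes were). An unadjusted p under 0.05 was found for 6 of the 13 and for 3944 of all 25748. With slide as a block 2 of the 13 rose, Hoxb4 and Hoxc4, both of paralogue group 4, whose genes are expressed in the posterior hindbrain and spinal cord. Both are among the 6 that passed only through agonist groups, Hoxb4 through CHIR_11-16 alone and Hoxc4 through both, so their calls are not free of the filter. With the block and no filter on dim probes 0 of the 39 members were called (lowest limma adjusted p = 0.0967), and 0 of 36050 genes. The background of the fit with both block and filter was 3.23% called, with 1.87% higher and 1.36% lower.

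Hoxc4 was the only Hox gene detected on all 4 agonist arrays and on none of the 4 inhibitor-only arrays, a pattern of 0.105% of all gene names. It was at 2.45% and 6.45% in CHIR_8-16 and at 4.64% and 12.6% in CHIR_11-16, against 1.41% and 2.42% in WiBi_0-16 and 1.44% and 1.94% in WiBi_0-11. Every agonist array lay above every inhibitor-only array, with CHIR_11-16 replicate 2 highest. The margin was small and the pattern hung on the array limits. CHIR_8-16 replicate 1 (2.453%, limit 1.806%) counted as detected and WiBi_0-16 replicate 2 (2.424%, limit 2.817%) did not. With the single limit of 3.36%, Hoxc4 passed on both CHIR_11-16 arrays but not on CHIR_8-16 replicate 1. The geometric mean was 5.515% in agonist cultures (SD 0.98 on the log2 scale, n = 4) and 1.76% in inhibitor-only cultures (SD 0.38, n = 4). Since the lower group was not well above background, the fold is a bound, the mean of the brighter group over the array limits or the measured value, whichever was higher. Hoxc4 was at least 2.39-fold higher with agonist. Its log2 difference was 1.65 (SE 0.30 with slide as a block, limma adjusted p = 0.0451, and SE 0.46 with adjusted p = 0.142 without it), and 1.25 on slide 2 and 2.05 on slide 3.

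Hoxb4 sat lower, at 1.15% and 3.37% in CHIR_8-16 and 2.89% and 5.81% in CHIR_11-16, against 0.397% and 0.582% in WiBi_0-16 and 0.42% and 0.712% in WiBi_0-11. The groups did not overlap, but only the 2 CHIR_11-16 arrays were well above background, so 2 of the 4 agonist values are themselves below detection. The geometric mean was 2.84% with agonist (SD 0.97 on the log2 scale, n = 4) and 0.5125% without (SD 0.40, n = 4). With the inhibitor-only values raised to the limits of their arrays the fold was 1.23. This is not a strict lower bound, since the 2 CHIR_8-16 values below detection were taken as measured. The log2 difference was 2.47 (SE 0.32 with slide as a block, limma adjusted p = 0.0379, and SE 0.46 with adjusted p = 0.0829 without it). Within slides it was 2.16 and 2.78.

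Neither call held when an array was left out. Leaving out any 1 of the 8 arrays ended both of them with the block (lowest Hox adjusted p 0.0645 to 0.119). In the same fits the log2 difference ran from 2.25 to 2.80 for Hoxb4 and from 1.38 to 1.92 for Hoxc4, and 0 to 5 of all 25748 genes were called, against 831 with all 8 arrays. Raising values below background to the limit of their array also ended both, and left log2 differences of 0.46 for Hoxb4 and 1.25 for Hoxc4.

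**Figure D3:**
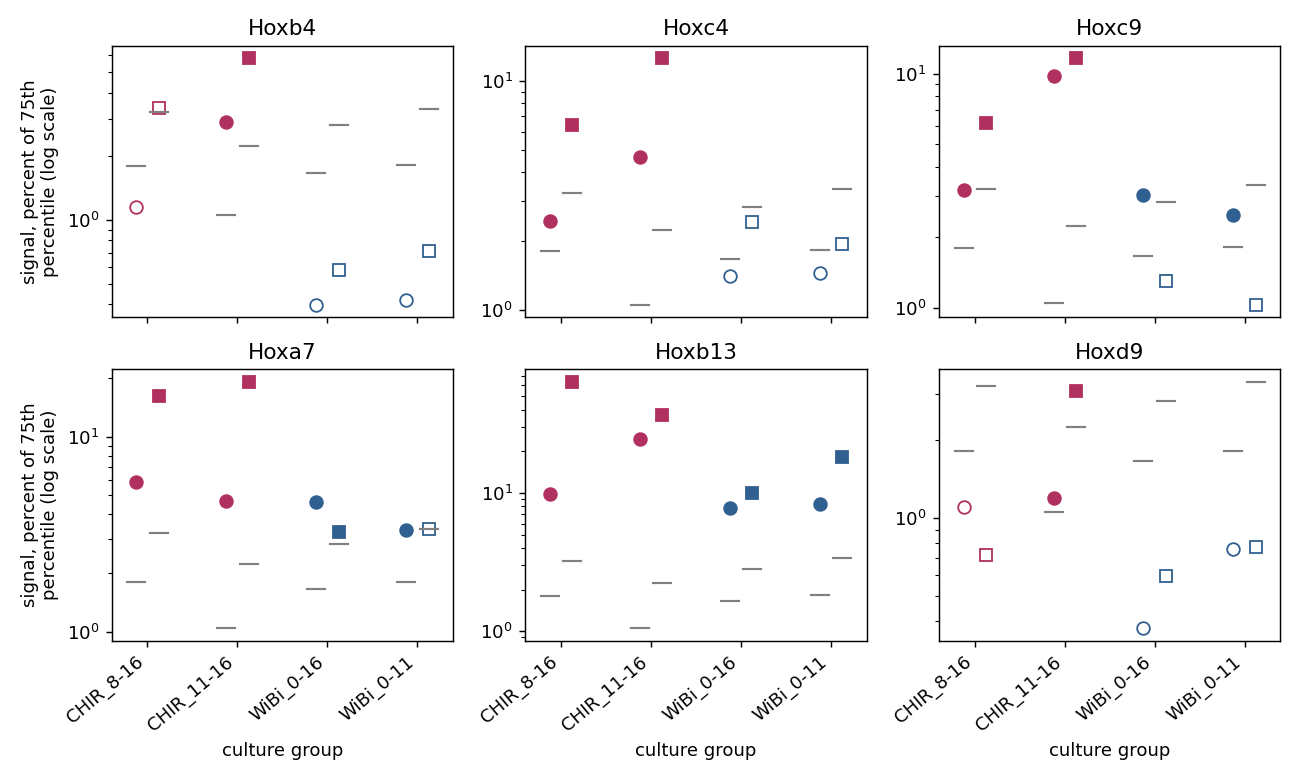
Levels of 6 Hox genes on the 8 culture arrays, in percent of the 75th percentile on log axes, with circles for replicate 1 (slide 2), squares for replicate 2 (slide 3), red for agonist and blue for inhibitor-only groups. Open symbols were not well above background and grey ticks are the limit of each array. All 4 agonist values of Hoxb4, Hoxc4, Hoxc9 and Hoxa7 lie above all 4 inhibitor-only values.

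A further 2 genes had agonist arrays that all lay above the inhibitor-only arrays without passing the test, which makes 4 of 13 with this pattern (6.70% of all tested genes had it). As 3 of the 4, all but Hoxa7, passed only through agonist groups, nothing is read from this count. For Hoxc9, a paralogue of the thoracic spinal cord (chr15:102814735-102814794, plus strand), levels were 3.18% and 6.16% in CHIR_8-16 and 9.73% and 11.6% in CHIR_11-16, against 3.02% and 1.3% in WiBi_0-16 and 2.49% and 1.03% in WiBi_0-11. CHIR_11-16 stood highest. The log2 difference was 1.95 (limma adjusted p = 0.121, and 0.0721 with the block), and 1.02 on slide 2 against 2.87 on slide 3.
For Hoxa7, a trunk paralogue (chr6:52165626-52165685, minus strand), levels were 5.83% and 16.1% in CHIR_8-16 and 4.67% and 19.1% in CHIR_11-16, against 4.64% and 3.27% in WiBi_0-16 and 3.34% and 3.37% in WiBi_0-11. The distance came almost wholly from slide 3, with log2 differences of 0.41 on slide 2 and 2.40 on slide 3 (1.40 in all, limma adjusted p = 0.193, and 0.0896 with the block).

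Hoxb13, the most tailward gene of cluster B, behaved unlike its neighbours. It was detected on all 8 culture arrays and on 0 of the 4 embryonic ones, a pattern of 0.163% of all gene names and of no other Hox gene. Levels were 9.84% and 63.8% in CHIR_8-16 and 24.5% and 36.8% in CHIR_11-16, against 7.83% and 10% in WiBi_0-16 and 8.35% and 18.2% in WiBi_0-11. In the embryonic tissues they were 0.31% to 0.692%. The agonist and inhibitor-only arrays overlapped, and the log2 difference of 1.39 did not pass (limma adjusted p = 0.276, and 0.0808 with the block). Between Hoxb13 and Hoxb7 on the chromosome, Hoxb9 and Hoxb8 were detected on no array.

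The other 3 genes tested through CHIR_11-16 alone were Hoxd8, Hoxd9 and Hoxc13. Together with Hoxb4 they were detected on both CHIR_11-16 arrays and no other culture array, 4 of 39 against 0.277% of all gene names. Hoxd8, a trunk paralogue, was at 0.726% and 3.05% in CHIR_8-16 and 3.35% and 7.78% in CHIR_11-16, against 1.79% and 1.03% in WiBi_0-16 and 1.6% and 3.4% in WiBi_0-11. Hoxd9, its neighbour, was at 1.1% and 0.718% in CHIR_8-16 and 1.19% and 3.08% in CHIR_11-16, against 0.373% and 0.593% in WiBi_0-16 and 0.756% and 0.767% in WiBi_0-11.
The CHIR_11-16 replicate 1 value of Hoxd9 is above the low limit of that array alone and below the limit of every other. Hoxc13, the last gene of cluster C, was at 0.663% and 0.697% in CHIR_8-16 and 3.03% and 2.85% in CHIR_11-16, against 1.03% and 0.785% in WiBi_0-16 and 0.467% and 1.98% in WiBi_0-11. The adjusted p of the agonist comparison was between 0.276 and 0.826 for these genes without the block and between 0.191 and 0.649 with it.

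The remaining tested members had smaller differences. Hoxa9 held 5.63% and 6.94% in CHIR_8-16 and 5.32% and 7.77% in CHIR_11-16, against 5.01% and 7.62% in WiBi_0-16 and 5.04% and 5.96% in WiBi_0-11. Hoxa4 was at 5.69% and 7.52% in CHIR_8-16 and 2.98% and 8.62% in CHIR_11-16, against 2.39% and 9.26% in WiBi_0-16 and 2.28% and 7.37% in WiBi_0-11. The higher value of each pair was that of slide 3 for both genes.
Hoxb6 was at 3.88% and 6.06% in CHIR_8-16 and 2.15% and 6.45% in CHIR_11-16, against 2.31% and 6.16% in WiBi_0-16 and 2.02% and 4.91% in WiBi_0-11. Hoxc12 was at 8.01% and 5.75% in CHIR_8-16 and 2.06% and 5.18% in CHIR_11-16, against 2.96% and 6.33% in WiBi_0-16 and 3.12% and 5.17% in WiBi_0-11. Hoxa6 was at 3.79% and 6.72% in CHIR_8-16 and 3.95% and 4.23% in CHIR_11-16, against 5.16% and 6.22% in WiBi_0-16 and 2.24% and 4.73% in WiBi_0-11. Groups overlapped for all 5 genes, and their log2 differences between agonist and inhibitor-only cultures were 0.08 to 0.39.

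More of these genes were called between slides than between treatments. Between slide 3 and slide 2, 5 of the 13 tested Hox genes rose (Hoxb6, Hoxa9, Hoxb4, Hoxc4 and Hoxa4), against 24.2% of all tested genes called higher. The median Hox difference was 0.75 beside 0.11 over all genes, with 12 of the 13 higher on slide 3.

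**Figure D4:**
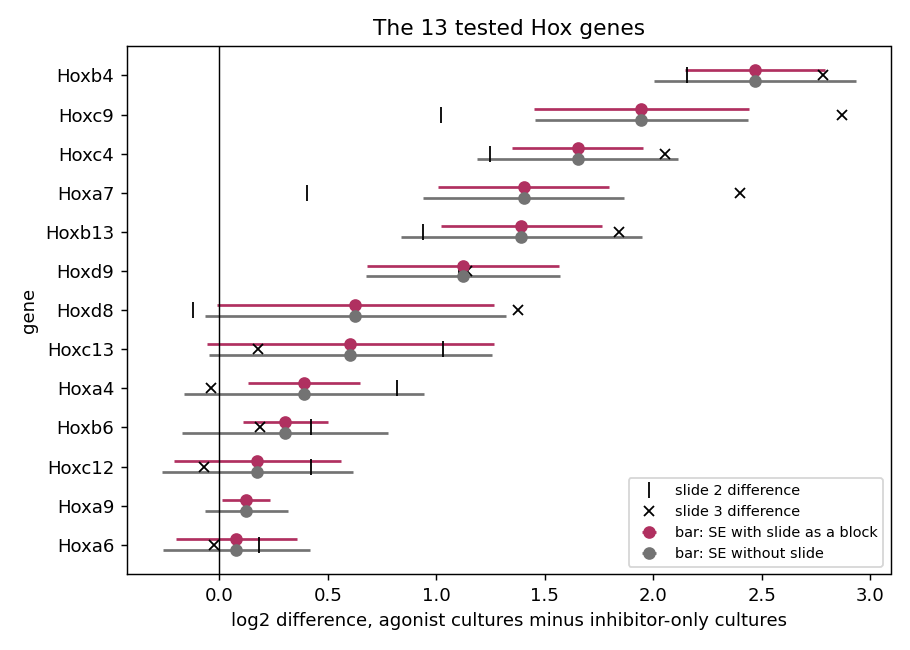
Points are log2 differences between the agonist and the inhibitor-only cultures for the 13 tested Hox genes, with bars of 1 standard error from limma with slide as a block (red) and without it (grey), and ticks and crosses for the difference within slide 2 and slide 3. Hoxb4 (2.47) and Hoxc4 (1.65) were called with the block, and the differences within a slide fall on both sides of 0 for Hoxd8, Hoxa4, Hoxc12 and Hoxa6.

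The pairwise comparisons called no Hox gene with or without the block, and 3 of them share the WiBi_0-11 arrays. For CHIR_8-16 against WiBi_0-11 (limma, 0.0117% of genes called without the block and 0.369% with it, of which 0.105% higher and 0.264% lower), 1 of the 13 had an unadjusted p under 0.05 without the block and 3 with it. The lowest adjusted p with the block was 0.0624, for Hoxb4 at a log2 difference of 1.85. For CHIR_11-16 against WiBi_0-11 (0% of genes called without the block and 0.0117% with it) 5 of the 13 had an unadjusted p under 0.05 in either fit. These were Hoxb4 (2.91, n = 2 against 2), Hoxc9 (2.73), Hoxc4 (2.19), Hoxc13 (1.61) and Hoxd9 (1.33) on the log2 scale, none with a limma adjusted p below 0.188, which was that of Hoxb4 with the block. As bounds, Hoxc4 was at least 3.098-fold, Hoxd8 at least 2.06-fold and Hoxb4 at least 1.66-fold higher in CHIR_11-16. Hoxb4, Hoxc13, Hoxd8 and Hoxd9 passed the filter through CHIR_11-16 alone, and Hoxc4 and Hoxc9 only through both agonist groups. The direction of these CHIR_11-16 differences and bounds was thus partly set by the filter.

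Continued inhibition and the time of the agonist were compared in the same way. For WiBi_0-16 against WiBi_0-11 (0% and 0.0117%) 0 of the 13 had an unadjusted p under 0.05 without the block and 1, Hoxa6 at 0.80, with it. For CHIR_8-16 against CHIR_11-16 (0% and 0.00777%) 1 of 13 had such a p without the block, Hoxc13 at -2.11, and 4 with it. Of these 4, Hoxb4 was at -1.06 and Hoxc4 at -0.94, each lower with the earlier agonist. Hoxc13 and Hoxb4 passed the filter through CHIR_11-16 alone, so their direction here was partly set by it.

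Medians over the 13 tested genes were 0.67 for CHIR_8-16 against WiBi_0-11 (0.21 to 1.17 with 1 array left out), 1.28 for CHIR_11-16 against WiBi_0-11, 0.14 for WiBi_0-16 against WiBi_0-11 and -0.26 for CHIR_8-16 against CHIR_11-16, and 0.63 for all agonist against all inhibitor-only cultures. Over all tested genes the medians lay between -0.01 and 0.05. Since the filter favoured genes high in 1 group, medians over all 39 members are also given. Of the 39, 14 were detected on no culture array and 8 on CHIR_11-16 replicate 2 alone. Many of their differences are thus between values below background, and nothing is read from the counts of higher and lower genes. Without the filter the agonist median was 0.18, with 26 higher and 13 lower, beside -0.04 over 36050 genes. Without the filter the median was -0.07 for CHIR_8-16 against WiBi_0-11 (18 higher, 21 lower) and 0.36 for CHIR_11-16 against WiBi_0-11 (27 higher, 12 lower).

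In the embryo, midbrain stood apart from the telencephalon. It detected 17 of the 39 Hox genes (75.3% of all gene names), against 3 in ventral telencephalon (64.7%), 4 in hippocampus (70.3%) and 6 in cortex (71.3%). The midbrain array also had the lowest limit, 1.32%, against 2.93% in ventral telencephalon, 1.71% in hippocampus and 1.59% in cortex. The part of these limits in the counts was not tested. Of the 12 genes of paralogue groups 1 to 4, midbrain detected 9, against 0, 1 and 1 in the telencephalic tissues. In midbrain and in no telencephalic tissue 8 Hox genes were detected, among them Hoxa2, Hoxa3, Hoxb4, Hoxc4, Hoxc5 and Hoxd3, a pattern of 3.75% of all gene names. All but Hoxc5 are of groups 1 to 4, the hindbrain paralogues. In midbrain, Hoxb4 (1.90%), Hoxc5 (2.70%) and Hoxd3 (1.66%) lay below the limit of the ventral telencephalon array.

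By the 2-fold rule, with dim telencephalic values raised to the limit of their array, 6 Hox genes were higher in midbrain than in each telencephalic tissue, of 17 detected there (3.36% of 27149 names). The count was 3 after quantile normalization and 2 after normexp with quantile normalization. Their values were singled out after being seen. Hoxa3, active in the posterior hindbrain (chr6:52119087-52119146, minus strand), was at 16% in midbrain, against 1.19% in ventral telencephalon, 1.15% in hippocampus and 0.997% in cortex, at least 5.47-fold.
Hoxa2, which sets the identity of the second branchial arch and reaches furthest forward of all Hox genes, was at 9.38% in midbrain, against 0.679%, 0.474% and 0.346% in the same order, at least 3.21-fold. Also among the 6 were Hoxb2 (6.17% in midbrain, at least 2.11-fold), Hoxb3 (6.08%, at least 2.08-fold by its brighter probe) and Hoxc6 (9.90% against 4.44% in ventral telencephalon, 2.23-fold). With 1 array per tissue there is no test.

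**Figure D5:**
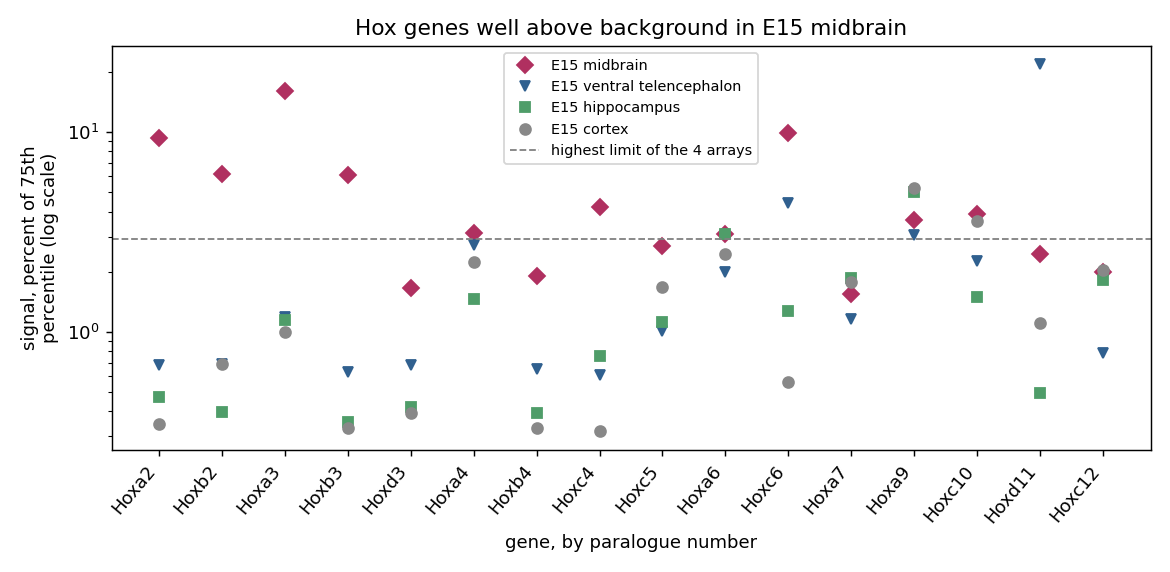
Levels of Hox genes detected in E15 midbrain (not every one is drawn), ordered by paralogue number, in percent of the 75th percentile on a log axis, for the 4 embryonic arrays (midbrain as red diamonds). The dashed line is the highest limit of the 4 arrays, 2.93%. Hoxa2, Hoxa3 and Hoxb2 stand above 6% in midbrain and below 2% elsewhere, whereas Hoxd11 is highest in ventral telencephalon.

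Markers of the hindbrain moved with these genes. All 11 genes of the list for hindbrain and spinal cord outside the Hox clusters were detected in midbrain, against 4 in ventral telencephalon, 4 in hippocampus and 3 in cortex, and their summed level was 1003%, against 44.4%, 53.7% and 54.1% in the same order. The midbrain and isthmus list reached 1788% there, against 58.6% to 177% in the telencephalic tissues, so both sets of markers were present. Mesoderm and mesenchyme markers summed to 1572% in midbrain, against 194% to 625%, and neural crest markers to 376%, against 46.1% to 97.9%. The part of these cells in the Hox values was not tested.

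Hox genes of all paralogue classes gave some signals in the telencephalon. Hoxd11 was at 21.9% in ventral telencephalon and 2.44% in midbrain, and below background in hippocampus and cortex. Hoxc9 was detected at 4.29% in ventral telencephalon alone. Hoxc6 was at 9.90% in midbrain, against 4.44% in ventral telencephalon and 1.275% in hippocampus and 0.559% in cortex, the last 2 below background. Hoxa9 was at 3.63% in midbrain, against 3.04% in ventral telencephalon (not well above background), 4.99% in hippocampus and 5.26% in cortex, much as in the cultures. Hoxa6 was at 3.08% in midbrain, against 1.99% (below background), 3.08% and 2.44% in the same order. Hoxa4 was at 3.14% in midbrain and 2.23% in cortex, Hoxc10 at 3.9% and 3.58%, and Hoxc12 at 2% and 2.05%, each not well above background in ventral telencephalon and hippocampus. Each of these 5 genes differed by less than 1.5-fold between midbrain and cortex, and their spread between samples of a tissue is unknown.

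Where a gene had 2 probes, they often disagreed. Of the Hoxb3 probes, one gave 4.49% in midbrain, against 0.714% in ventral telencephalon, 6.215% in hippocampus and 0.976% in cortex, while the other gave 6.08%, against 0.63%, 0.353% and 0.329%. So detection of Hoxb3 in hippocampus rests on 1 probe. For Hoxa13, a gene of the tail and limb, one probe was at 17.3% on WiBi_0-16 replicate 2 and at 0.505% to 1.58% on the other 7 culture arrays. Its other probe was at 14.6% on CHIR_11-16 replicate 2 and at 0.216% to 1.01% on the rest. Neither probe was detected where the other was. Both Hoxa9 probes were detected on 7 of the 8 culture arrays.

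The Hox genes of E15 midbrain and those of the cultures overlapped in part. Midbrain and both CHIR_11-16 arrays had 7 Hox genes in common (Hoxa4, Hoxa6, Hoxa7, Hoxa9, Hoxb4, Hoxc4 and Hoxc12), which is 7 of the 17 of midbrain and 7 of the 13 of CHIR_11-16, and 67.8% of all gene names were detected on these 3 arrays. Hoxb3, Hoxc5 and Hoxd3 were detected in midbrain and on 0 culture arrays, a pattern of 2.77% of all names. Hoxc4 was at 4.19% and Hoxb4 at 1.9% in midbrain, both below background in the telencephalic tissues.

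Genes that act with or on the Hox clusters were read from lists. In none of the lists was a gene called without the block, and with it 3.23% of all tested genes were called in the agonist comparison and 0.369% in CHIR_8-16 against WiBi_0-11. All 9 Hox cofactors were tested and 0 were called in limma in the agonist comparison, with or without the block, at a median log2 difference of -0.35. Meis1 was at 234% and 215.5% in CHIR_8-16 and 349% and 430% in CHIR_11-16, against 392% and 642% in WiBi_0-16 and 364% and 557% in WiBi_0-11 (log2 -0.69, adjusted p = 0.2925, and 0.1645 with the block). Meis2 differed by -0.74 (adjusted p = 0.5445, and 0.190 with the block).

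Among 10 upstream regulators 6 were tested, with a median of 0.39, and 1 was called. Gbx2, which sets the front edge of the hindbrain, rose with the block (log2 2.74, SE 0.53, limma adjusted p = 0.0468, and 0.0829 without). It was at 14.95% and 54.2% in CHIR_8-16 and 15.7% and 9.08% in CHIR_11-16, against 2.35% and 2.61% in WiBi_0-16 and 4.07% and 2.29% in WiBi_0-11, with no overlap. Cdx2, a posterior activator of Hox genes, was not well above background on any of the 12 arrays (0.22% to 2.2%). Cdx1, of the same family, was well above background on 6 of the 8 culture arrays, all 4 agonist arrays among them, and on 0 embryonic arrays. It was at 2.14% and 4.85% in CHIR_8-16 and 2.56% and 4.37% in CHIR_11-16, against 1.17% and 5.86% in WiBi_0-16 and 2.06% and 2.21% in WiBi_0-11, with overlap (log2 0.48, limma adjusted p = 0.807, and 0.441 with the block). Egr2, the Krox20 factor of the hindbrain, was at 12.2% and 46.4% in CHIR_8-16 and 8.89% and 28.5% in CHIR_11-16, against 10.9% and 27.1% in WiBi_0-16 and 9.92% and 17.2% in WiBi_0-11, and differed by 0.38 (adjusted p = 0.904, and 0.447 with the block).

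Of 16 retinoic acid genes 14 were tested and 1 rose with the block, Stra6, a retinol uptake receptor (log2 1.17, adjusted p = 0.0472, and 0.198 without), at a list median of 0.06. In CHIR_8-16 against WiBi_0-11, Cyp26b1, which degrades retinoic acid, fell with the block by 1.61 on the log2 scale (adjusted p = 0.0274, and 0.179 without). Rarb, a receptor and target of retinoic acid, differed by 0.40 between agonist and inhibitor-only cultures (adjusted p = 0.828, and 0.193 with the block). Cyp26a1 was detected on WiBi_0-11 replicate 2 (9.2%) and CHIR_11-16 replicate 1 (1.79%) only. Of 13 Polycomb genes 12 were tested and 1 rose with the block, Ezh2, the histone methyltransferase (log2 0.51, SE 0.09, adjusted p = 0.0451, and 0.0907 without), at a list median of 0.02.

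Among transcripts of the clusters other than the Hox genes, 3 of 15 noncoding RNAs were on the array and 1 was tested. That was the antisense transcript of Hoxa11, at 13% and 11.8% in CHIR_8-16 and 6.02% and 24% in CHIR_11-16, against 8.94% and 14.1% in WiBi_0-16 and 8.01% and 16.4% in WiBi_0-11. It was detected on all 12 arrays, on none of which Hoxa11 was. The 13 flanking genes gave 11 tested and 0 called, at a median of -0.22.

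Regional markers outside the Hox clusters behaved as follows in the agonist comparison with the block. Of 10 tested forebrain genes 1 rose, Otx1 (log2 1.96, adjusted p = 0.0451, and 0.0829 without), at a median of -0.08. Otx2 differed by 2.18 (adjusted p = 0.178, and 0.0855 with the block). Of the 8 tested midbrain and isthmus genes 0 were called (median 0.10), and of the 7 tested hindbrain and spinal cord genes 0 (median -0.17). The summed hindbrain and spinal cord level ranged over 225% to 472% in CHIR_8-16 and 165% to 178% in CHIR_11-16, against 138% to 159% in WiBi_0-16 and 131% to 145% in WiBi_0-11.

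Markers of other cell types were also detected. The mesoderm and mesenchyme list summed to 170% to 231% in CHIR_8-16 and 316% to 427.5% in CHIR_11-16, against 374% to 439% in WiBi_0-16 and 768.5% to 882% in WiBi_0-11. Among mesoderm and mesenchyme genes 1 of 6 tested rose with the block, Prrx1 (log2 1.17, adjusted p = 0.0451, and 0.0829 without), at a list median of -0.58, and Col3a1 fell by 2.81 in CHIR_8-16 against WiBi_0-11 with the block (adjusted p = 0.0440, and 0.179 without). Among neural crest genes 1 of 3 tested rose, Tfap2a, listed as Tcfap2a (log2 1.65, adjusted p = 0.0470, and 0.0829 without), at a list median of -0.27. No gene of the blood and endothelium, pluripotency or neuron lists was called, at medians of -0.04, 0.21 and -0.20. Of the 8 blood and endothelium genes, Hba-a1, Pecam1, Kdr and Csf1r were well above background on all 8 culture arrays. The haemoglobin gene Hba-a1 was at 2.845% to 9.85% there and at 17380% to 24720% in the embryonic tissues, and Hbb-b1 was below background on the 7 culture arrays with a usable spot and at 19740% to 23150% in the embryonic tissues. What these cells add to the Hox values was not tested.

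The promoters of the genes called were also read. RefSeq's table (GRCm38.p6) gave the 250 bases before the start of 22 of the 39 genes. CTTTGAT, the core bound by the TCF/LEF factors of WNT signalling, was searched on both strands and was in 1 of 24 Hox promoters (Hoxd8), against 3.21% of 32851 promoters. TTTATGG, a Cdx core, was in 1 (Hoxd4), against 2.43%, and the DR5 repeat bound by retinoic acid receptors in 0, against 0.00913%. The motifs do not overlap each other in these promoters, and a match is only a string of letters. The promoters of the 2 called genes, shown because both were higher in the agonist cultures, carry none of the 3 motifs within these bases, and so no capitals.
Hoxb4, chr11:96318017-96318266 of GRCm38.p6, plus strand: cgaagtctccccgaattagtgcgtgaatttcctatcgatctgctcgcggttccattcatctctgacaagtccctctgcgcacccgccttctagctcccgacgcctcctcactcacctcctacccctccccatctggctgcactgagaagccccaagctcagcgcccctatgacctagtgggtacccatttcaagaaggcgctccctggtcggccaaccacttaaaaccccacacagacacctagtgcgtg
Hoxc4, chr15:103034145-103034394 of GRCm38.p6, plus strand: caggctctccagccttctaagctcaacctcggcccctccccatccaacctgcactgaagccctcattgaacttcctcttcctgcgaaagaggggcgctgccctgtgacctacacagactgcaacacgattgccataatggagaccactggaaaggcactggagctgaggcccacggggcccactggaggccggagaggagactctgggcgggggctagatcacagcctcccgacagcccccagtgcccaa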

How the data were processed

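RNA was measured on 12 single-colour Agilent arrays, 8 of cultures and 4 of embryonic tissues. The processed signal is an intensity that, per the file headers, the authors obtained with Feature Extraction 10.7.3.1 (the submitters' processing notes name 9.1), with marks per spot for signal well above background. The deposited table of log2 values followed the scanner values array by array (Pearson's r 0.989 to 0.994 on the log2 scale) and was used as an alternative. The median of its columns was 6.19 to 6.24, and its exact steps are not given in the sources used here.

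Control spots and marked outlier spots were left out, no spot was saturated, and log2 signals were set against each array's 75th percentile. Culture files held no gene names, so names were joined by probe from the embryonic files. A gene was represented by its brightest passing probe. A probe passed where some culture group had it well above background on each of its 2 arrays, with an unmarked spot on all 8. The 25748 genes left were tested with limma 3.58.1 in R 4.3.3 (lmFit and eBayes, 2-sided, Benjamini-Hochberg adjusted p under 0.05), and the steps were tested on simulated data. The precision rests on 2 arrays per culture group.

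Arrays with the same replicate number shared a slide, and they deviated together (correlation of deviations from group means 0.579 to 0.667 in 6 group pairs), so slide was used as a block in a second fit. Embryonic arrays lay on slide 1 alone and were compared with each other without a test. Alternatives were other normalizations, filters, priors, detection marks and arrays left out. Normexp used the median signal, as the culture files hold no mean signal.

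The members, lists and rules were chosen with earlier results of these data known. Values on every array are given for members called in any comparison, the 12 tested members with the largest agonist difference, up to 8 found in embryonic tissue and up to 12 detected in all cultures. Of other genes, some called list genes and fixed anchors are named, and further genes named were chosen after their values were seen. Some genes and sequences are not reported here.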

Additional observations from a re-analysis of the deposited data

Results flagged for a closer look

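For Hoxa7 in the 4 inhibitor-only arrays, WiBi_0-16 replicate 1 (4.64%) stood apart from WiBi_0-16 replicate 2 (3.27%) and the WiBi_0-11 arrays (3.34% and 3.37%). Its gap to the nearest array was 0.911 of the whole range, above Dixon's 95% critical value for 4 arrays. It was the 1 group past that value of 26 checked, where chance flags about 1 in 20 groups.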

How the results depend on the processing

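Over 282 recalculations of the 18 main results, 250 kept a count within 1.5-fold or a median within the spread between replicates. Among the 250 are the 23 call counts of each pairwise comparison. These all stayed at 0, in fits that called few genes of any kind. In the agonist comparison the call count of 0 became 2 with slide as a replicate block, 1 with a trended prior (Hoxb4) and 1 with the block after quantile normalization. Leaving out 1 array gave 0 calls in all 8 cases with or without the block, and its median ran from 0.2682 to 1.2039 (0.4372 to 1.1479 with the block). The block changed no call in the 4 pairwise comparisons.

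The CHIR_8-16 against WiBi_0-11 median was -0.0684 with no filter on dim probes, with or without the block. Without 1 replicate it ran from 0.2109 to 1.1686 (0.2329 to 0.872 with the block). The CHIR_11-16 against WiBi_0-11 median was 0.2784 after normexp, 0.3559 with no filter and 0.3257 with dim values at the limit (both also with the block), and 0.2677 over the 4 genes detected on all 8 arrays. Without 1 replicate it ran from 0.5202, without CHIR_11-16 replicate 2, to 1.5804 (0.6521 to 1.2732 with the block). The CHIR_8-16 against CHIR_11-16 median ran from -0.9768, without CHIR_11-16 replicate 1, to 0.1102 (-0.8151 to -0.2936 with the block).

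Between slides, the 5 calls became 2 after quantile normalization, 1 after normexp, 2 in the deposited table, 16 with no filter and 2 among genes detected on all 8 arrays, and the median became 0.0862 after normexp. With the laxer mark of signal above background, both arrays detected 19 Hox genes in CHIR_8-16, 27 in CHIR_11-16, 22 in WiBi_0-16 and 16 in WiBi_0-11, and midbrain 26. With 1 limit for all cultures the counts were 6 in CHIR_11-16, 3 in WiBi_0-16 and 2 in WiBi_0-11. The midbrain count of 6 became 3 after quantile normalization and 2 after normexp.

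Directions reversed for 3 uncalled genes. Hoxa6 was at -0.2333 without WiBi_0-11 replicate 1 (-0.1822 with the block), -0.1096 without CHIR_8-16 replicate 2 (-0.0337 with the block), -0.0302 after normexp and -0.0484 in the deposited table. Over the arrays left out it reached 0.2571 at most. Hoxc12 was at -0.0792 without CHIR_8-16 replicate 1 (-0.2642 with the block) and at most at 0.5733 with another array left out, and Hoxd9 at -0.1051 with dim values at the limit, with or without the block. The cause was not tested. Most Hox signals lay near background, which limits what can be said of their size.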
